A study of Mus musculus with 17 samples.

Results

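The nuclear genes of oxidative phosphorylation encode most subunits of the 5 enzyme complexes in the inner mitochondrial membrane. They were taken as all genes of both expression tables whose symbols begin with Nduf followed by a, b, c, s or v, with Uqcr, with Cox4 to Cox8, with Atp5, or with Sdh followed by a, b, c or d, leaving out the testis-specific genes Cox8c and Cox6b2. This gave 92 genes of the 23980 in each table. By role, 38 were subunits of complex I, 7 assembly factors of complex I, 4 subunits and 2 assembly factors of complex II, 8 subunits of complex III, 16 of complex IV and 15 of complex V. Atp5s and Atp5sl made up the rest: they carry an older ATP synthase name but encode no subunit, and are now called Dmac2l and Dmac2. Ndufa4 was kept under complex I by its name, although its product is now assigned to complex IV.

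Complex I (NADH dehydrogenase) and complex II (succinate dehydrogenase) pass electrons to ubiquinone, complex III passes them to cytochrome c, and complex IV (cytochrome c oxidase) passes them to oxygen. Complexes I, III and IV pump protons, and complex V (ATP synthase) uses the gradient to make ATP. Male germ cells are known to exchange some ubiquitous subunits for testis isoforms as they mature, among them Cox7b2 in place of Cox7b.

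The series held 17 poly(A) RNA libraries from mice of the C57BL6/J strain. At 3 to 4 weeks of age, spermatocytes in leptotene and zygotene (L/Z, the opening phase of meiosis) were sorted from wild-type (WT), Pld6 knockout (KO) and Dnmt3l KO testes, with 2 libraries per genotype. On the day of birth (P0), whole testes were taken from WT (2 libraries), Pld6 KO (4), Dnmt3l KO (2) and Pld6 and Dnmt3l double knockout (DKO, 3) animals. Pld6 encodes a protein of the outer mitochondrial membrane needed to make piRNAs, and Dnmt3l a cofactor of de novo DNA methylation. Both knockout lines had been crossed onto this background for over 12 generations, no Cre driver is named, and the P0 samples contain somatic cells of the testis as well as germ cells. In bulk samples, fewer cells of a type and less RNA per cell cannot be told apart.

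Library totals ran from 5.19 to 14.6 M counts in spermatocytes and from 9.46 to 23.4 M counts in P0 testes. Pld6 had 0 counts in the L/Z Pld6 KO and DKO libraries and 0 to 2 in the P0 Pld6 KO libraries, against 344 to 352 in L/Z WT and 40 to 57 in P0 WT. Dnmt3l had 0 counts in the L/Z Dnmt3l KO libraries against 11 to 19 in WT, and 1 to 2 in the P0 Dnmt3l KO libraries and 0 to 3 in DKO against 53 to 72 in WT. In the P0 Pld6 KO libraries it had 6 to 145. The 12 markers of L/Z spermatocytes summed to 3242 to 5106 CPM (counts per 1000000 counts of the library, scaled with TMM factors) in WT and Pld6 KO spermatocytes and 8057 to 9105 CPM in Dnmt3l KO spermatocytes. The 12 markers of later germ cells summed to 58.1 to 80.4 CPM in WT, 24.7 to 42.2 CPM in Pld6 KO and 20.1 to 27.8 CPM in Dnmt3l KO, with Prm2 at 0 throughout. Of the P0 libraries, Dnmt3l KO replicate 1 stood apart with 101 CPM of these later markers, against 8.82 to 19.5 CPM in the others. The ribosomal precursor Rn45s took 8.27% of counts in L/Z WT replicate 1 and 8.06% in L/Z Pld6 KO replicate 1, and 0.134 to 0.301% in the other L/Z libraries.

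Promoter sequences are shown for 8 genes to which the results below return. Of the 92 genes, 77 had a window from 250 bases before to 50 bases after the start site in the RefSeq table of build GRCm38.p6, which covers 27025 genes. Each line gives the 120 bases before the start, 5′ to 3′ on the strand of the gene. Capitals mark matches, on either strand, to the palindromic NRF1 element with any base at 1 of its central positions, or to CCGGAAG, the core of elements bound by ETS factors such as GABP.
Atp5k: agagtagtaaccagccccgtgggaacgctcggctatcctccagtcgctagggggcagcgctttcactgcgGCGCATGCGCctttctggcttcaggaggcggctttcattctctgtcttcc
Atp5g2: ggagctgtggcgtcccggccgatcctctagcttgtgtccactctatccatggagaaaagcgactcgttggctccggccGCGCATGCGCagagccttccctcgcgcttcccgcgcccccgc
Ndufa11: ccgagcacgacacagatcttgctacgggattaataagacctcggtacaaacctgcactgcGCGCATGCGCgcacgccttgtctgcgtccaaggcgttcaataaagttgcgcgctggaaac
Sdha: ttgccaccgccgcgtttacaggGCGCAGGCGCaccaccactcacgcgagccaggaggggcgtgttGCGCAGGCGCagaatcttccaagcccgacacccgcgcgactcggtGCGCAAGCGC
Cox6a1: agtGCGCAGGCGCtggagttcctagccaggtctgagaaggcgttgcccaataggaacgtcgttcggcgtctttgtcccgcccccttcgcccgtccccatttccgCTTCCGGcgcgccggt
Atp5e: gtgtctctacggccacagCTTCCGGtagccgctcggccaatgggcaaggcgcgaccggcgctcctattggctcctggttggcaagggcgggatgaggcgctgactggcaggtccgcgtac
Cox7b: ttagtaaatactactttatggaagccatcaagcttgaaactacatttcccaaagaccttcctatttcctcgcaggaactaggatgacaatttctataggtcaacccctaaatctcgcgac
Cox7b2: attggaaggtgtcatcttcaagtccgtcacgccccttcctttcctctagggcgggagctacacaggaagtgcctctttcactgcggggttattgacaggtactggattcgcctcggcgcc
On the minus strand lie Atp5k (chr5:108434400-108434519), Atp5g2 (chr15:102671048-102671167), Sdha (chr13:74350241-74350360), Cox6a1 (chr5:115348959-115349078), Atp5e (chr2:174464102-174464221) and Cox7b2 (chr5:71548206-71548325). On the plus strand lie Ndufa11 (chr17:56717642-56717761) and Cox7b (chrX:106015580-106015699).

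A gene was counted where any of its windows held a match, and the shares of all genes cover the 27025 genes, not only those tested. The NRF1 element was present in 19 of the 77 genes (24.7%), against 5.19% of all genes. Its strict form, as in the lines of Atp5k, Atp5g2 and Ndufa11, was present in 7 (9.09%) against 1.07%, which the 19 include. The ETS letters were present in 19 genes (24.7%, all genes 9.93%), and AAGATGGCG, the YY1 element, in 8 (10.4%, all genes 1.64%). At least 1 of the NRF1, ETS and YY1 letters occurred in 40 of the 77 genes (51.9%), against 15.1% of all, and TATAAA in 7 (9.09%) against 15.7%. The window of Sdha, the flavoprotein subunit of complex II, held 3 NRF1 matches in its printed part. The windows of Cox7b and Cox7b2 held no match in their printed part. These matches are descriptions of letters and do not show a bound site.

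In WT cells the genes were among the more abundant transcripts at both stages. Their median level was 146 FPKM (fragments per kilobase of transcript and per 1000000 fragments) in L/Z spermatocytes and 95.8 FPKM in P0 testes, against 9.52 and 9.39 FPKM over all genes tested. In spermatocytes 70 of the 87 genes tested lay above the 90th percentile of all genes, and in P0 testes 67 of 91. The 5 not tested in spermatocytes for low counts were Ndufa4l2, Ndufs5, Cox4i2, Cox6a2 and Cox8b, and Cox8b alone was not tested at P0. The plot of WT levels by complex shows that subunits of complexes III, IV and V had the highest medians and that the assembly factors and the Atp5s and Atp5sl pair lay lowest.

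**Figure D1:**
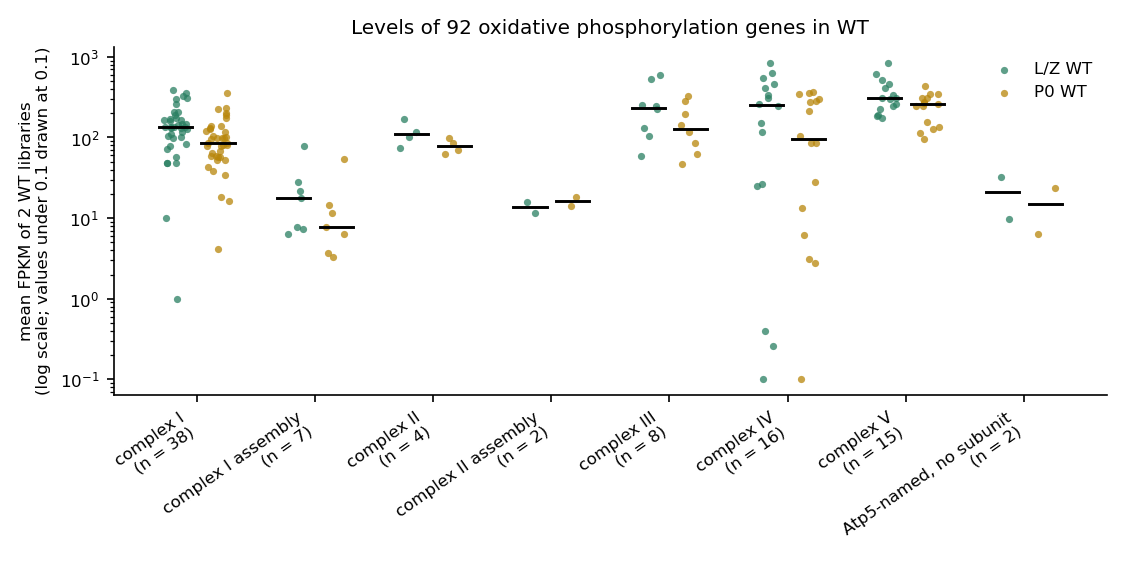
WT level of each gene in FPKM (log axis) in L/Z spermatocytes and P0 testes, by complex; each point is 1 gene, the mean of 2 libraries. Complex IV subunits in spermatocytes had a median of 252 FPKM, and complex I assembly factors one of 17.8 FPKM.

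Complex I showed its highest WT levels in spermatocytes at Ndufa4, with 405 and 369 FPKM in the 2 libraries, and at the accessory subunit Ndufb9, with 337 and 382 FPKM. At P0 the highest complex I genes were 2 other accessory subunits, Ndufb4 with 342 and 367 FPKM and Ndufa3 with 180 and 284 FPKM. The assembly factors were far lower: the most abundant in spermatocytes were Ndufaf2 with 59.7 and 96.6 FPKM and Ndufaf1 with 20.7 and 34.7 FPKM. In complex II, the iron-sulphur subunit Sdhb had 138 and 200 FPKM and Sdha 102 and 133 FPKM in spermatocytes, so that Sdhb was the higher in both libraries. In CPM the order was reversed, with 121 and 175 CPM for Sdhb and 271 and 356 CPM for Sdha. At P0 the mean was 86.3 FPKM for Sdhb and 99.6 FPKM for Sdha.

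In complex III, the hinge protein Uqcrh had 500 and 690 FPKM in WT spermatocytes and 311 and 341 FPKM in P0 testes, the highest of its complex at both stages. In complex IV, Cox4i1, a subunit next to the catalytic core, had 819 and 862 FPKM in spermatocytes, and Cox6a1 had 562 and 691 FPKM. At P0 Cox6a1 (346 and 396 FPKM) and Cox6c (327 and 381 FPKM) led the complex. In complex V, subunit e (Atp5k) had 696 and 989 FPKM and subunit epsilon (Atp5e) 524 and 691 FPKM in spermatocytes. The catalytic beta subunit Atp5b had 471 and 549 FPKM there. In CPM, which is not divided by length, Atp5b was the higher, with 793 and 926 CPM against 66.0 and 93.8 CPM for Atp5k. The order by FPKM thus rests on the transcript length used, most of all for short genes. At P0 Atp5b led with 417 and 441 FPKM, followed by the c-ring gene Atp5g2 with 313 and 385 FPKM.

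The order of the 92 genes by WT level had a Spearman rho of 0.831 between the stages (0.714 over the 13993 genes tested in both), against 0.979 and 0.987 between the WT replicates within a stage. The points share library preparation and differ in read layout between the stages, so rho is a description. Cox7c, a small subunit of complex IV, moved the furthest, from rank 15 in spermatocytes (332 FPKM) to rank 74 at P0 (28.1 FPKM). Cox5a, a subunit near the catalytic core of complex IV, had 308 FPKM in spermatocytes and 86.4 FPKM at P0, and Atp5e had 607 and 136 FPKM. The opposite order was found for the accessory complex I subunits Ndufb11 (47.6 FPKM in spermatocytes and 141 FPKM at P0) and Ndufb4 (168 and 355 FPKM). The 2 stages were normalised in separate tables, so these differences were not tested.

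Where a subunit has alternative genes, their shares of the summed FPKM differed between the stages. Cox7b2 made up 81.0% ± 7.32 (SD, n = 2) of the Cox7b and Cox7b2 total in WT spermatocytes and 6.73% ± 0.487 (n = 2) in WT P0 testes. The share in mutant spermatocytes was 75.8% ± 8.33 in Pld6 KO and 85.3% ± 1.87 in Dnmt3l KO (n = 2 each), within 1 SD of the WT share. At P0 it was 7.22% ± 3.00 in Pld6 KO (n = 4) and 8.82% ± 2.32 in DKO (n = 3), while the Dnmt3l KO libraries had 22.3% in replicate 1 and 3.04% in replicate 2. Replicate 1 was the library with the raised later germ cell markers, and their part in this share was not tested. Cox7b lies on the X chromosome and Cox7b2 on chromosome 5.

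Cox7a2l, taken here as a paralog of Cox7a2, made up 36.5% ± 1.39 of the Cox7a2 and Cox7a2l total in WT spermatocytes, 45.1% ± 1.6 in Pld6 KO and 42.9% ± 1.80 in Dnmt3l KO (n = 2 each). Both mutants lay above both WT libraries (35.5 to 37.5%). The longest annotated transcript was 659 nt for Cox7a2 and 1129 nt for Cox7a2l, and the part of length in this shift was not tested. The c-ring of ATP synthase is encoded by 3 genes whose mature proteins are identical: in WT spermatocytes Atp5g1, Atp5g2 and Atp5g3 held 27.2%, 45% and 27.8%, and in P0 testes 13.4%, 48.4% and 38.1%. Of the isoforms known from muscle, lung or hypoxic tissue, Cox4i2, Cox6a2, Cox8b and Ndufa4l2 held at most 0.519% of their pair in any L/Z library. Cox7a1, the heart and muscle isoform of subunit VIIa, held more, with 9.0% ± 3.28 (SD, n = 2) of its pair with Cox7a2 in WT spermatocytes and 6.26 to 11.3% over all L/Z libraries.

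In L/Z spermatocytes lacking Pld6, transcripts of oxidative phosphorylation were lower as a group, although no single gene passed the test. Of 87 genes tested, 85 had a log2 fold change below 0 against WT, compared with 49.5% of all genes tested. Their median log2 fold change was -0.53, against 0.00 over all 14662 genes. The summed level of the 92 genes was 9050 and 11487 CPM in the WT libraries and 7273 and 7853 CPM in Pld6 KO, so the groups did not overlap. In the Dnmt3l KO libraries it was 7692 and 9723 CPM, which overlapped both.

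**Figure D2:**
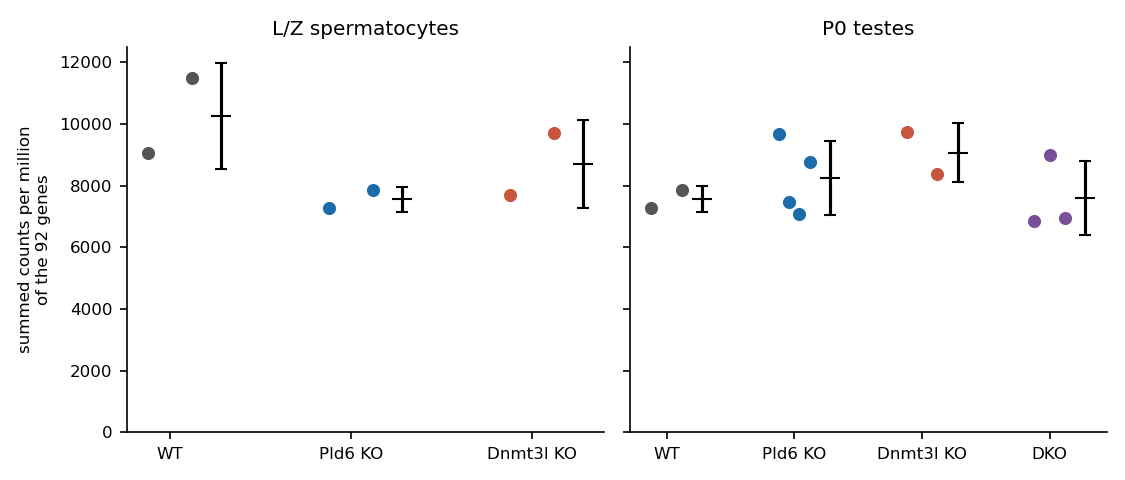
Summed level of the 92 genes in CPM in each library, by genotype and stage; points are libraries and bars the mean ± SD. Both L/Z Pld6 KO libraries (7273 and 7853 CPM) lay below both WT libraries (9050 and 11487 CPM), whereas the P0 groups overlapped except that both Dnmt3l KO libraries lay above both WT libraries.

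By edgeR's quasi-likelihood test with Benjamini-Hochberg adjustment, 0 of the 87 genes were called higher (0.184% of all genes) and 0 lower (0.0409%), with a smallest adjusted p of 0.320. At an unadjusted p under 0.05, 32 were lower (3.55% of all genes) and 0 higher (5.62%). DESeq2 also called 0 (0.866% of all genes to which it gave an adjusted p, as in the DESeq2 shares that follow), and limma 0. In 65 genes both Pld6 KO libraries lay below both WT libraries (21.3% of all genes), and in 0 above (21.6%).

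All complexes shared the direction. The 36 complex I subunits tested all had a log2 fold change below 0, with a median of -0.60, and 15 of them had an unadjusted p under 0.05. The 7 assembly factors of complex I had a median of -0.41, the 4 subunits of complex II one of -0.31, and the 8 subunits of complex III one of -0.51. The 13 subunits of complex IV had a median of -0.49 and the 15 of complex V one of -0.57, and in 14 of these 15 the groups did not overlap. The 20 genes grouped as core or catalytic subunits had a median of -0.36 and the 67 other genes one of -0.58. The 20 included Cox4i1, Cox5a and Cox5b, which lie beside the catalytic core of complex IV and are not part of it.

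The lowest p values belonged to Atp5g2 and Uqcr10. Atp5g2 had 134 and 143 CPM in WT and 92 and 78.5 CPM in Pld6 KO, a log2 fold change of -0.70 (SE 0.20, edgeR adjusted p = 0.320). Uqcr10, a small subunit of complex III, had 50.8 and 57 CPM in WT and 29.8 and 32.3 CPM in Pld6 KO, a log2 fold change of -0.80 (SE 0.23, edgeR adjusted p = 0.326). In both genes each mutant library was below each WT library.

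The 2 largest differences were in complex IV. Cox7b2 had 34 and 45.6 CPM in WT and 16.1 and 23.4 CPM in the mutant, a log2 fold change of -1.0 (SE 0.29, edgeR adjusted p = 0.333). Cox7a1 had a log2 fold change of -1.10 (SE 0.50) at 4.91 and 3.40 CPM in WT and 1.89 and 1.97 CPM in the mutant. Cox4i1 had 392 and 413 CPM in WT and 282 and 293 CPM in Pld6 KO, a log2 fold change of -0.49 (SE 0.21), and its groups did not overlap.

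A few genes had log2 fold changes near 0. Ndufs1, the largest core subunit of complex I, had 166 and 224 CPM in WT and 182 and 199 CPM in Pld6 KO, a log2 fold change of -0.03 (SE 0.22). Sdha had 271 and 356 CPM in WT and 286 and 307 CPM in Pld6 KO, a log2 fold change of -0.08 (SE 0.22). In both, the mutant libraries lay between the WT libraries. Sdhaf2, which helps to load the flavin onto Sdha, and Atp5s were the only genes above 0, with log2 fold changes of 0.06 (SE 0.24) and 0.10 (SE 0.37).

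**Figure D3:**
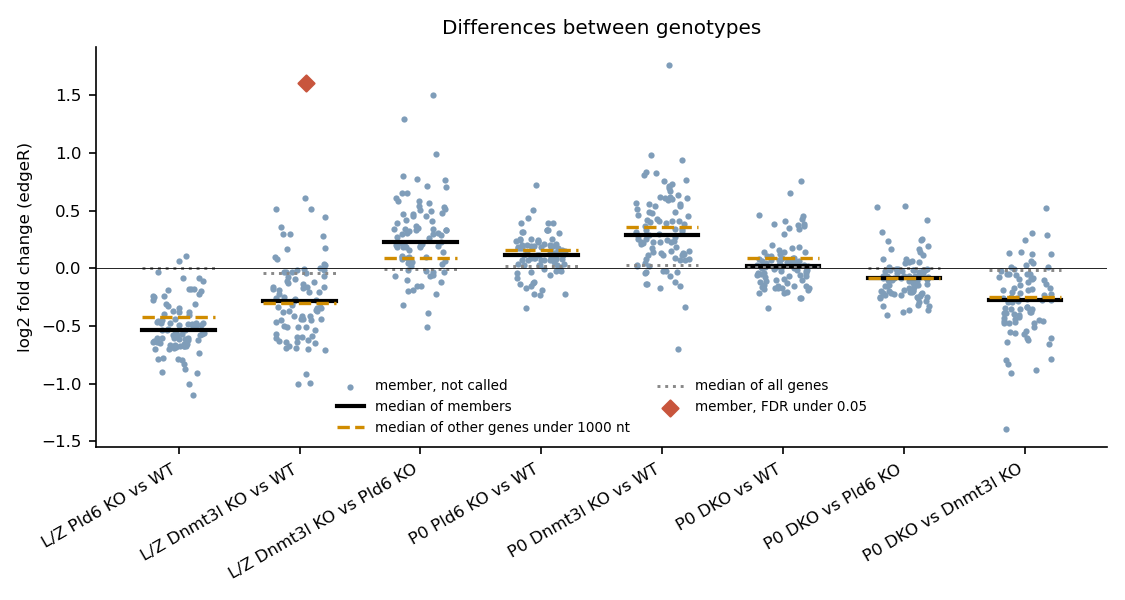
log2 fold change of each gene tested in the 8 comparisons (points), with the median of the genes (black), of other genes with transcripts under 1000 nt (orange, dashed) and of all genes (grey, dotted); the red diamond is the single gene called. In the L/Z Pld6 KO comparison the 3 medians were -0.53, -0.42 and 0.00.

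Transcript length moved with this result. The genes tested had a median annotated length of 1232 nt, and 40.2% were under 1000 nt, against 3347 nt and 5.03% over all genes. Length was that of the longest annotated transcript of a gene, which put Atp5l at 6310 nt and Ndufb7 at 4435 nt. The expressed transcript may be shorter, so some genes counted as longer may be short. The split by length and the offset below both rest on these lengths. In L/Z Pld6 KO the 35 shorter genes had a median log2 fold change of -0.58 and the 52 longer ones one of -0.48, while the other short genes of the genome (696) had one of -0.42 and the other longer genes (13763) one of 0.03. With an offset for length and GC content the median of the 87 was -0.23, and the part that length has in the difference was not separated further.

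**Figure D4:**
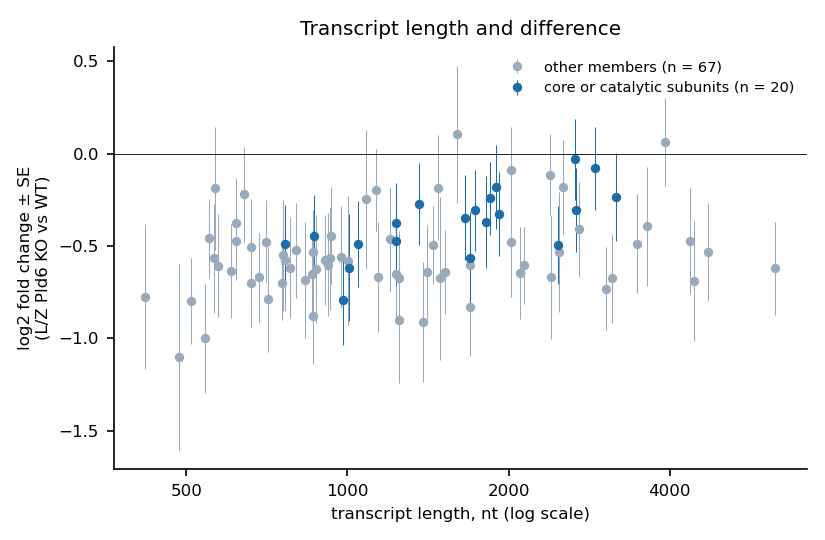
log2 fold change (± SE) of L/Z Pld6 KO against WT for each of the 87 genes, plotted against the length of the longest annotated transcript in nt (log axis). The 20 genes grouped as core or catalytic subunits are marked apart from the 67 others. The 52 genes of 1000 nt or more had a median of -0.48 and the 35 shorter ones one of -0.58.

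The difference was present among libraries rich and poor in Rn45s, each with 1 library a group and hence no test. Between the rich libraries 78 of 87 genes were lower in Pld6 KO, with a median log2 difference of -0.40, and between the poor ones 85 were, with a median of -0.62. The later germ cell markers were also lower in both Pld6 KO libraries (24.7 and 42.2 CPM) than in both WT libraries (58.1 and 80.4 CPM), as were the 8 spermatogonial markers (1376 to 1457 CPM against 1621 to 1759 CPM), and their part was not tested. Without WT replicate 2, which had the highest summed level, the median was -0.33. Leaving out WT replicate 1, or both Rn45s-rich libraries, brought 1 call, of Ndufs5. Ndufs5, an accessory subunit of complex I, had 1 and 73 counts in the WT libraries, 0 in both Pld6 KO libraries, and 0 and 1 in those of Dnmt3l KO, so that its level rested on WT replicate 2; at P0 it had 37 to 121 counts in every library.

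In Dnmt3l KO spermatocytes 1 gene rose and 0 fell, against 5.27% and 1.93% of all genes called. The gene was Atp5s, whose product was first described as coupling factor B of ATP synthase. It had 10.6 and 14.7 CPM in the WT libraries and 10.03 and 16.9 CPM in those of Pld6 KO, against 50.4 and 27.1 CPM in Dnmt3l KO. Both Dnmt3l KO libraries lay above the other 4, and the log2 fold change against WT was 1.6 (SE 0.37, edgeR adjusted p = 0.0305). The call was lost without Dnmt3l KO replicate 1 (1.08, adjusted p = 0.243), without WT replicate 1 (1.38, adjusted p = 0.143) and with the offset for GC content and length (1.21, adjusted p = 0.0951).

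Among the 87 genes, 71 had a log2 fold change below 0 (52.2% of all genes), with a median of -0.29 against -0.04. That median depended on single libraries: it was -0.10 without WT replicate 2, -0.13 without Dnmt3l KO replicate 1, -0.44 without WT replicate 1 and -0.52 without Dnmt3l KO replicate 2. With the offset for GC content and length it was -0.16, and the other short genes of the genome had a median of -0.30. At an unadjusted p under 0.05, 14 were lower (11.7% of all genes) and 1 higher (15%). In 33 genes both Dnmt3l KO libraries lay below both WT libraries (27.5% of all genes) and in 5 above (28.1%). The 15 complex V subunits had a median of -0.45, the 13 of complex IV one of -0.35 and the 8 of complex III one of -0.41, while the 7 complex I assembly factors had one of 0.09. The L/Z spermatocyte markers, given above, were higher in both Dnmt3l KO libraries than in the other 4. Other markers moved as well: the 10 of prospermatogonia summed to 5230 to 5310 CPM against 2740 to 4131 CPM in WT, the 8 of spermatogonia to 740 to 1234 CPM against 1621 to 1759 CPM, and the 8 of Sertoli cells to 57.5 to 176 CPM against 217 to 299 CPM. Later germ cell markers were also below WT. The list named for prospermatogonia summed to 262 to 313 CPM in WT testes at P0, the stage at which the paper places these cells. Its sum in sorted spermatocytes is therefore not a measure of prospermatogonia. The part of cell types in the difference was not tested.

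The genes nearest to a call on the lower side were subunits of complex I. Ndufs8, a core iron-sulphur subunit, had 122 and 129 CPM in WT and 40 and 83.6 CPM in Dnmt3l KO, a log2 fold change of -1.0 (SE 0.29, edgeR adjusted p = 0.0617). Ndufa11, an accessory subunit of the membrane arm whose promoter is printed above, had 121 and 119 CPM in WT and 42.8 and 83.2 CPM in Dnmt3l KO, a log2 fold change of -0.92 (SE 0.28, edgeR adjusted p = 0.0699). In both genes the groups did not overlap, and Dnmt3l KO replicate 1, the library with the fewest counts, was the lowest. Without that library no gene of the 87 was called. DESeq2 called 6 (15.7% of all genes), Ndufs8 among them. Ndufs8 was called lower in 11 of the alternatives run, including total counts alone, a mean of at least 50 counts, the compared groups alone and the replicate block, so that its place just above the threshold depended on the setting.

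The mutants were also set against each other in spermatocytes. Of the 87 genes, 0 were called higher in Dnmt3l KO than in Pld6 KO (0.0409% of all genes) and 0 lower (0.00682%), and 9 were higher at an unadjusted p under 0.05 (9.04% of all genes) and 0 lower (8.46%), while DESeq2 called 2 (4.64% of all genes). In 36 genes both Dnmt3l KO libraries lay above both Pld6 KO libraries (26.9% of all genes) and in 1 below (26.2%). The median log2 difference was 0.23, and 70 of 87 genes were above 0 (49.8% of all genes). The median was 0.018 without Dnmt3l KO replicate 2, 0.36 without Pld6 KO replicate 2, 0.39 without Dnmt3l KO replicate 1, and 0.084 with the offset for GC content and length. Ndufa1, an X-linked accessory subunit of complex I, had 37.4 and 64.2 CPM in Pld6 KO, 105 and 144 CPM in Dnmt3l KO and 50.1 and 125 CPM in WT, a log2 difference of 1.29 between the mutants (edgeR adjusted p = 0.172). The mutants did not overlap in Ndufa1, and both overlapped WT. Both mutants were compared with the same 2 WT libraries, so their medians against WT are not independent.

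In P0 testes the genes differed little between Pld6 KO and WT. In that comparison 0 genes were called by edgeR in either direction (0.00629% of all genes higher and 0.0% lower), and 0 by DESeq2 (0.0944% of all genes) and limma. Of 91 genes tested, 72 were above 0 (53.2% of all genes), the median log2 fold change was 0.12 against 0.02 over all 15901 genes, and 1 had an unadjusted p under 0.05 on the higher side (3.14% of all genes) and 0 on the lower (1.92%). The median was 0.011 without Pld6 KO replicate 1, 0.032 without WT replicate 1, 0.18 without Pld6 KO replicate 2, 0.22 without WT replicate 2, and 0.020 with the offset for GC content and length. Among the other short genes of the genome the median was 0.16. The gene with the low unadjusted p, Cox4i1, had 142 and 149 CPM in WT and 221, 191, 144 and 230 CPM in Pld6 KO, a log2 fold change of 0.43 (SE 0.20, edgeR adjusted p = 0.963). Replicate 3 lay within the WT range and the other 3 above it. In 2 genes all Pld6 KO libraries were above both WT libraries (5.83% of all genes) and in 3 below (5.69%), among them Cox5a with 44.5 and 47.1 CPM in WT and 30.8 to 41.1 CPM in Pld6 KO. Sertoli markers were below WT in every Pld6 KO library (2037 to 2506 CPM against 2749 to 3094 CPM). Leydig markers were above WT in every Pld6 KO library (1976 to 3868 CPM against 1782 to 1802 CPM). The other marker lists overlapped. Replicate 1, without which the median was 0.011, had 125 CPM of prospermatogonial markers and 1154 CPM of blood markers. The other Pld6 KO libraries had 359 to 459 CPM and 298 to 915 CPM of these. The part of cell types was not tested.

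In P0 Dnmt3l KO testes the genes lay above WT as a group. Of 91 genes 78 were above 0 (52.7% of all genes), the median was 0.29 against 0.03, and in 42 both Dnmt3l KO libraries were above both WT libraries (25.3% of all genes) and in 2 below (24.3%). By edgeR 0 genes were called in either direction (0.0% of all genes each), 15 had an unadjusted p under 0.05 on the higher side (6.24% of all genes) and 0 on the lower (6.69%). DESeq2 called 1, Atp5e (0.73% of all genes), and limma 0. Several cell type markers also lay apart from WT in both Dnmt3l KO libraries: Sertoli markers summed to 1778 to 2151 CPM against 2749 to 3094 CPM in WT, and spermatogonial markers to 143 to 182 CPM against 230 to 263 CPM. The 7 Leydig markers were above WT (2286 to 2938 CPM against 1782 to 1802 CPM), as were those of prospermatogonia (349 to 498 CPM against 262 to 313 CPM), L/Z spermatocytes (172 to 318 CPM against 145 to 156 CPM) and macrophages (82.3 to 92.2 CPM against 67.4 to 68.4 CPM). Blood markers overlapped (246 to 845 CPM against 445 to 468 CPM). According to the paper, P0 testes hold no germ cells other than prospermatogonia, so the spermatogonia and L/Z spermatocyte lists are given by name only. The part of cell types in the group difference was not tested.

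Atp5e had 32.9 and 34.7 CPM in WT and 68.2 and 65.3 CPM in Dnmt3l KO, a log2 fold change of 0.98 (SE 0.22, edgeR adjusted p = 0.256). Atp5s had 8.24 and 8.65 CPM in WT and 15.9 and 16.4 CPM in Dnmt3l KO, a log2 fold change of 0.93 (SE 0.29, edgeR adjusted p = 0.30). The replicates of both genes lay close together and the groups were far apart, whereas Cox7b2, with a log2 fold change of 1.76, had 14.4 CPM in Dnmt3l KO replicate 1 and 1.39 CPM in replicate 2. The median over the 91 genes was 0.094 without Dnmt3l KO replicate 1, 0.18 without WT replicate 1 and 0.46 without Dnmt3l KO replicate 2, and with the offset for GC content and length it was 0.064. The other short genes of the genome had a median of 0.36.

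**Figure D5:**
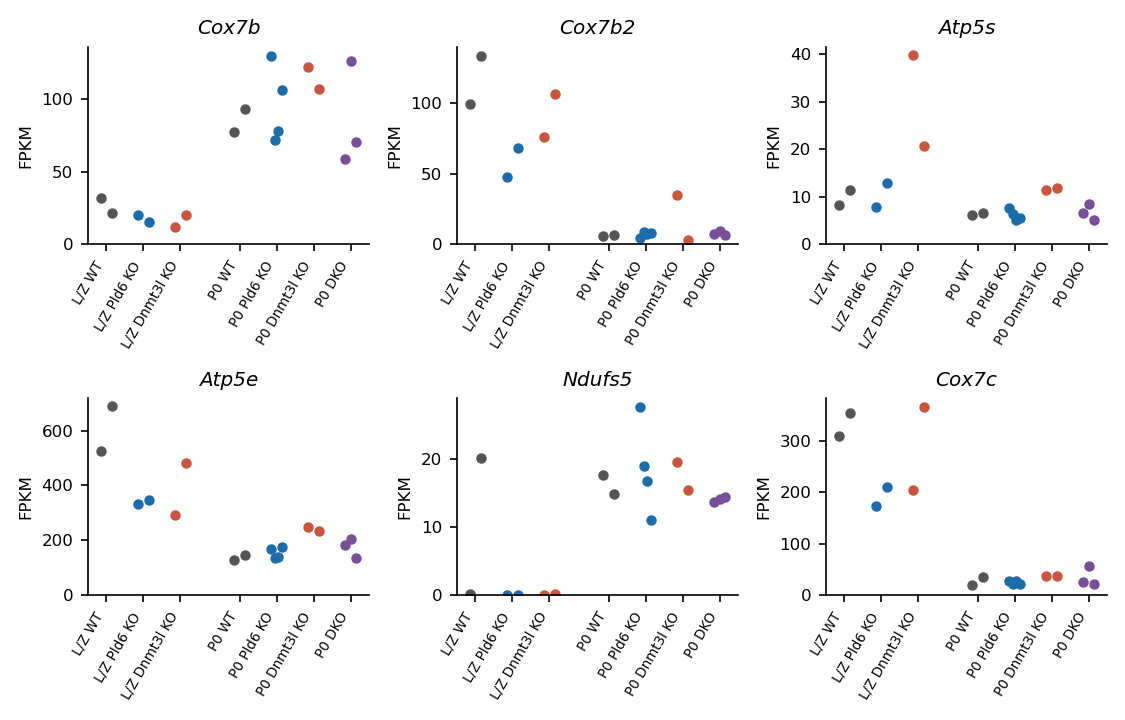
FPKM in each library of Cox7b, Cox7b2, Atp5s, Atp5e, Ndufs5 and Cox7c, by stage and genotype; each point is 1 library. Cox7b2 exceeded Cox7b in every L/Z library and was below it in every P0 library, and Atp5s was highest in both Dnmt3l KO libraries at each stage.

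In the double knockout at P0 the genes lay close to WT. By edgeR 0 of 91 were called in either direction (0.00629% of all genes each), 0 had an unadjusted p under 0.05 (5.14% of all genes higher and 2.84% lower) and DESeq2 called 0 (0.453% of all genes). In 7 genes all DKO libraries lay above both WT libraries (15.7% of all genes) and in 4 below (13.4%). The median log2 fold change was 0.02, with 50 genes above 0 (52.0% of all genes), and ran from -0.16 without DKO replicate 2 to 0.11 without WT replicate 2. Atp5e had 46.3, 55.6 and 34.4 CPM in DKO, a log2 fold change of 0.42 against WT (SE 0.20, edgeR adjusted p = 0.636), and replicate 3 lay within the WT range. Sertoli markers lay below WT in every DKO library (1890 to 2721 CPM against 2749 to 3094 CPM). L/Z spermatocyte markers lay above WT in every DKO library (191 to 256 CPM against 145 to 156 CPM). That list is given by name only, as the paper describes no germ cells other than prospermatogonia at P0. The other marker lists overlapped, and the part of these cell types was not tested.

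Against Dnmt3l KO the double knockout was lower in 78 of 91 genes, with a median log2 difference of -0.27 (50.9% of all genes were lower). The median was -0.11 without Dnmt3l KO replicate 1, -0.43 without Dnmt3l KO replicate 2 or DKO replicate 2, and -0.048 with the offset for GC content and length, while the other short genes of the genome had a median of -0.25. In 22 genes all DKO libraries lay below both Dnmt3l KO libraries (18.7% of all genes) and in 2 above (19.4%). By edgeR 0 genes were called (0.0566% of all genes higher and 0.0252% lower), 17 were lower at an unadjusted p under 0.05 (7.84% of all genes) and 0 higher (9.99%), and DESeq2 called 2, Ndufaf1 and Ndufaf4 (4.1% of all genes). These assembly factors of complex I had log2 differences of -0.66 (SE 0.17, edgeR adjusted p = 0.106) and -0.88 (SE 0.23, edgeR adjusted p = 0.108). Ndufaf1 had 27.6 and 25.2 CPM in Dnmt3l KO and 16.3, 17.1 and 16.7 CPM in DKO, with 19.2 and 18.7 CPM in WT, so that DKO lay below both other groups.

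Against Pld6 KO the double knockout had a median of -0.09, with 72 of 91 genes below 0 (50.1% of all genes). It was -0.26 without DKO replicate 2 and 0.0044 without Pld6 KO replicate 1, while the other short genes of the genome had a median of -0.09. By edgeR 0 genes were called in either direction (0.0% of all genes each), and by DESeq2 0 (0.0503% of all genes). At an unadjusted p under 0.05, 1 gene was higher (3.47% of all genes) and 1 lower (2.55%): Cox5a, with a log2 difference of 0.42, and Ndufb10, an accessory subunit of complex I, with one of -0.41. In 1 gene all DKO libraries lay above all Pld6 KO libraries (3.31% of all genes) and in 4 below (3.04%). These P0 comparisons share the WT, Pld6 KO or Dnmt3l KO libraries among them.

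At P0 the summed level of the genes overlapped between most genotypes. It was 7280 and 7857 CPM in WT, 9694, 7479, 7068 and 8754 CPM in Pld6 KO, 9746 and 8392 CPM in Dnmt3l KO and 6873, 8996 and 6939 CPM in DKO. The 4 libraries with the highest sums (8754 CPM and above) were the same 4 with the highest sums of the 7 blood markers, 640 CPM and above against at most 479 CPM in the others. Blood was 1 of 9 marker lists compared in this way, and the other lists shared 0 to 3 of the 4 libraries. Dnmt3l KO replicate 2, whose sum of 8392 CPM was above both WT libraries, had only 246 CPM of blood markers. The part of blood cells in the summed level was not tested.

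The effect of each mutation was tested between the stages in 1 fit over 14 libraries. For Pld6 KO, 87 of 91 genes were lower in their L/Z effect than in their P0 effect, with a median difference of -0.69 on the log2 scale against -0.04 over all 16547 genes (53.0% of them below 0). In edgeR 0 were called (0.0121% of all genes higher and 0.0% lower), 29 had an unadjusted p under 0.05 on the lower side (4.85% of all genes) and 0 on the higher (4.67%), and DESeq2 called 1, Ndufs5 (0.34% of all genes). With the offset for GC content and length the median was -0.32. For Dnmt3l KO, 83 of 91 were lower (54.6% of all genes), the median was -0.61 against -0.08, and 28 had an unadjusted p under 0.05 on the lower side (8.35% of all genes) and 0 on the higher (8.82%). With the offset the median was -0.12, and it was -0.39 without L/Z Dnmt3l KO replicate 1.

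In that comparison 1 gene was called lower (0.212% of all genes) and 0 higher (0.453%), and DESeq2 called 6 (4.45%). Atp5e differed by -1.64 (SE 0.34, edgeR adjusted p = 0.0446): its log2 fold change was -0.64 in spermatocytes and 0.98 at P0. In spermatocytes it had 111 and 147 CPM in WT and 61.4 and 104 CPM in Dnmt3l KO, both below WT, while at P0 both Dnmt3l KO libraries were above WT. The direction was the same in all 22 alternatives and the call was kept in 8. Ndufv3, an accessory subunit of the flavoprotein part of complex I, came next with -1.55 (SE 0.35, edgeR adjusted p = 0.0630). Stage, tissue, read layout and RNA amount changed together and cannot be told apart here.

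The genes differed in how evenly they were expressed over libraries. In spermatocytes the SD of log2 CPM over the 6 libraries had a median of 0.356 over these genes against 0.320 over all genes, and was among the smallest for Atp5sl (0.0864) and Sdha (0.146). It was largest for Atp5s (0.846), Ndufa1 (0.769) and Ndufs8 (0.594). At P0 it was smallest for the F1 subunits Atp5b and Atp5a1 (0.123 each) and largest for Ndufa12 (0.459), Ndufc1 (0.453) and Cox7c (0.440).

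In L/Z Pld6 KO, lists of related genes outside the 92 had medians nearer to 0 than the -0.53 of the genes tested. Other genes under 1000 nt had a median of -0.42 there, and the lists were not matched for transcript length. The order did not hold in every comparison: in P0 DKO against WT the citrate cycle genes had a median of -0.20 and the members one of 0.02. In L/Z Pld6 KO the 20 genes of complex IV assembly and copper delivery tested had a median log2 fold change of -0.11, the 13 electron carriers and exchangers one of -0.14, the 18 citrate cycle genes one of -0.07 and the 11 regulators of mitochondrial transcription one of 0.00, with 0 called in any of them by edgeR. The 7 assembly factors of complex I outside the list had a median of 0.01 and the 8 of complexes III and V one of -0.16. In L/Z Dnmt3l KO, of the 77 genes tested in these 6 lists, 2 were called higher and 1 lower, where 5.27% and 1.93% of all genes were. Cox19, a copper chaperone for complex IV, fell by 1.05 on the log2 scale (edgeR adjusted p = 0.0431). Tfb1m, a methyltransferase of mitochondrial ribosomal RNA, rose by 0.93 (edgeR adjusted p = 0.0406), and Dlat, a subunit of pyruvate dehydrogenase, by 0.99 (edgeR adjusted p = 0.0285). The testis isoforms Cox6b2 and Cox8c, left out of the 92, had log2 fold changes of -1.39 and -1.21 in L/Z Pld6 KO, below both WT libraries, with edgeR adjusted p of 0.227 and 0.393. The later germ cell markers given above were also lower there, and the part of later cells was not tested. The 12 protein-coding genes of mitochondrial DNA that were looked for were not analysed here.

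The difference in L/Z Pld6 KO was of like size with and without the promoter letters. The 39 genes tested whose window held NRF1, ETS or YY1 letters had a median log2 fold change of -0.53, with 38 below 0, and the 36 genes without had one of -0.58, with 35 below 0. In L/Z Dnmt3l KO the medians were -0.36 and -0.21. The groups were not tested against each other.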

How the data were processed

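Stranded poly(A) libraries were sequenced as 50-base single reads (L/Z) or 100-base read pairs (P0). According to the methods and processing notes, the authors aligned reads with TopHat2 to mm10 and quantified RefSeq genes with Cuffdiff; further version numbers are not given in the sources used here. The deposited tables give, per gene and library, estimated counts of fragments, which were rounded here, and FPKM, which the authors normalised by length and depth and which is used only for levels and shares. Replicate numbers in the tables start at 0 and were taken as label 1 onwards. The labels call them biological replicates, but nothing states whether they are separate animals, so p-values measure the spread between these samples.

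Counts were tested with edgeR 4.0.16 (R 4.3.3; filterByExpr, TMM, quasi-likelihood), 1 fit per stage with all its groups and 1 fit over 14 libraries for the stage differences. A call is an adjusted p under 0.05 over all genes tested. The fits were tested on simulated data. Alternatives were other normalisations and filters, DESeq2 1.42.0, limma 3.58.1 on log2(FPKM + 1) and log2(FPKM + 0.1), an offset for GC content and length, single libraries left out and a replicate block. The members and lists were chosen with earlier results of these data known. Named genes are those called, or else the 2 with the lowest p in each direction, the 2 highest and the lowest WT FPKM of each role, and genes singled out after their values were seen: Cox7b, Cox7b2, Cox7a1, Cox7c, Ndufs1, Sdha, Ndufs5 and those named for their spread, rank or share. Numbers of counts set the precision: genes under about 5 CPM rest on few reads.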

Additional observations from a re-analysis of the deposited data

Results flagged for a closer look

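In the 4 P0 Pld6 KO libraries, 1 library lay far from the other 3 in 4 of 92 genes checked, and chance flags about 1 in 20 groups. Ndufa12, an accessory subunit of complex I, had 162 CPM in replicate 1 against 74.8 to 79.3 CPM in the others, and Ndufv1, the core subunit that binds NADH, had 82.1 CPM in replicate 3 against 94.8 to 95.4 CPM. Cox4i2, the lung isoform of subunit IV, had 1.03 CPM in replicate 3 against 2.06 to 2.15 CPM, and Cox7a1 had 2.38 CPM in replicate 2 against 3.39 to 3.52 CPM. The effect of Dnmt3l KO on Atp5e differed between spermatocytes and P0 testes by -1.64 on the log2 scale (edgeR adjusted p = 0.0446).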

How the results depend on the processing

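The median log2 fold change of the genes kept its sign in every alternative run for all comparisons except P0 DKO against WT (below 0 in 5 of 21 alternatives) and DKO against Pld6 KO (above 0 in 1 of 21). With the offset for GC content and length the median was -0.23 for L/Z Pld6 KO, -0.16 for L/Z Dnmt3l KO, 0.020 for P0 Pld6 KO, 0.064 for P0 Dnmt3l KO, -0.048 for DKO against Dnmt3l KO, and -0.32 and -0.12 for the stage differences of Pld6 KO and Dnmt3l KO. Leaving out 1 library at a time gave medians of -0.68 to -0.33 for L/Z Pld6 KO, -0.52 to -0.10 for L/Z Dnmt3l KO, 0.018 to 0.39 for L/Z Dnmt3l KO against Pld6 KO, 0.011 to 0.22 for P0 Pld6 KO, 0.094 to 0.46 for P0 Dnmt3l KO, -0.43 to -0.11 for DKO against Dnmt3l KO, -0.81 to -0.54 for the Pld6 KO stage difference and -0.90 to -0.39 for the Dnmt3l KO stage difference.

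Numbers of genes called moved as follows, and the cause was not tested. Leaving out 1 library gave 0 to 1 calls for L/Z Pld6 KO, L/Z Dnmt3l KO against Pld6 KO, P0 Dnmt3l KO, DKO against Dnmt3l KO and the Pld6 KO stage difference, 0 to 4 for L/Z Dnmt3l KO and 0 to 7 for the Dnmt3l KO stage difference. DESeq2 called 6 for L/Z Dnmt3l KO, 2 for Dnmt3l KO against Pld6 KO, 1 for P0 Dnmt3l KO, 2 for DKO against Dnmt3l KO, and 1 and 6 for the Pld6 KO and Dnmt3l KO stage differences. For L/Z Dnmt3l KO, total counts alone, a mean of at least 50 counts, limma on log2(FPKM + 0.1) and the compared groups alone each gave 2 calls, and no filter gave 4. With the offset for GC content and length Atp5s was not called there, but Atp5l was called lower (edgeR adjusted p = 0.0461). The offset took Atp5l at 6310 nt, the length of its longest annotated transcript. Dnmt3l KO against Pld6 KO had 1 call with no filter and with the compared groups alone. The Dnmt3l KO stage difference had 0 calls with limma at either pseudocount and with the offset. Without the libraries rich in Rn45s, chosen after seeing the data, L/Z Pld6 KO had 1 call and L/Z Dnmt3l KO 3.

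Replicate numbers did not pair the samples over all genotypes. In spermatocytes same-numbered libraries deviated together with r of 0.528 between WT and Pld6 KO, but -0.131 and -0.115 for the pairs with Dnmt3l KO. Replicate 1 of WT and of Pld6 KO were the libraries rich in Rn45s. Neither the replicate block nor a factor for libraries rich in Rn45s gave a call for L/Z Pld6 KO. With the replicate block L/Z Dnmt3l KO had 2 calls. With the Dnmt3l KO numbers crossed, chosen after seeing the data, the block gave 4 calls there and 2 for Dnmt3l KO against Pld6 KO.

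By shares of fragments rather than FPKM, Cox7b2 held 65.0% of its WT pair in L/Z and 3.14% at P0, Cox7a2l 47.8% and 76.0%, Cox7a1 2.87% and 4.25%, Ndufa4l2 0.675% and 4.35%, and Atp5g1 32.7% and 16.6%; Atp5g2 held 40.5% in L/Z, and Cox4i2 and Cox6a2 1.06% and 1.14% at P0.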
